A study of Mus musculus with 12 samples.

Results

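B-lineage cells made up 192 of the 3184 cells in the 2 libraries of YFP- cells from dissociated mouse islets, and of 5982 cells in all 4 single-cell libraries. A cell was counted as B-lineage when it was low in the 4 islet hormones, had at least 1 unique molecular identifier (UMI) for at least 2 of the B genes Cd79a, Cd79b, Ms4a1 and Mzb1, and had UMIs for fewer than 4 of the 6 myeloid genes Lyz2, Tyrobp, Fcer1g, Cd68, C1qa and Laptm5. Hormone-low meant a level of at most 3.23 (Ppy), 5.12 (Gcg), 6.36 (Ins2) and 3.32 (Sst), in natural log of 1 plus UMIs per 10000. The rule gave 75 members in experiment 1 and 117 in experiment 2. The members were thus chosen by the measured UMIs of these 14 genes, whose levels are given as a description only.

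The mice were 2 months old, of mixed background, and had received doxycycline at 1 mg per ml in the drinking water for labelling 1 month before sorting. They carried Ppy-rtTA, in which the transactivator rtTA takes the place of the coding sequence of one Ppy allele (the pancreatic polypeptide gene), with TetO-Cre and R26-YFP, so that doxycycline marks Ppy-expressing γ-cells with YFP. The YFP+ and YFP- fractions of each experiment came from the same pooled islets and were loaded separately, and both fractions carry the rtTA allele. The labels number only the libraries of experiment 2, and the unnumbered YFP+ and YFP- libraries were taken as those of experiment 1. Bulk libraries came from YFP+ γ-cells of such mice, 5 samples of genotype Ppy-rtTA;TetO-Cre;R26-YFP, and from YFP+ δ-cells of Sst-Cre;R26-YFP mice, 3 samples, whose doxycycline treatment the labels leave unclear. Neither reporter is meant to mark immune cells, and no library was sorted for them.

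B cells recognise antigen through an immunoglobulin on their surface, whose signal passes through the Cd79a and Cd79b chains. After activation they can divide and mutate their immunoglobulin genes in germinal centres, or become plasma cells, which lose most B-cell surface proteins, enlarge the endoplasmic reticulum and secrete antibody. A light chain is either κ or λ in a given cell, κ being the common one in mice, and the J chain joins antibodies of the IgM and IgA classes into polymers.

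Plasma-cell genes were prominent among the members, so promoters of genes of the secretory pathway were searched for the endoplasmic reticulum stress response element (ERSE), a motif known to be bound by factors such as Xbp1 and Atf6 together with NF-Y. Windows ran from 250 bases before to 50 bases after each RefSeq gene start on GRCm38.p6, and both strands were searched for CCAAT followed after 9 further bases by CCACG. The motif was found in 39 of 32851 windows (0.119%) and in 2 of the 15 plasma cell genes that had a window, Derl3 and Creld2, which are shown because both are among the genes that divided the members below. Derl3, a protein of the degradation channel of the endoplasmic reticulum, has its window at chr10:75893148-75893447 on the plus strand. Creld2, a chaperone-like secretory protein, has its window at chr15:88819396-88819695 on the plus strand. Capitals mark the match, which reads on the minus strand in both and begins 156 and 126 bases before the start:
Derl3: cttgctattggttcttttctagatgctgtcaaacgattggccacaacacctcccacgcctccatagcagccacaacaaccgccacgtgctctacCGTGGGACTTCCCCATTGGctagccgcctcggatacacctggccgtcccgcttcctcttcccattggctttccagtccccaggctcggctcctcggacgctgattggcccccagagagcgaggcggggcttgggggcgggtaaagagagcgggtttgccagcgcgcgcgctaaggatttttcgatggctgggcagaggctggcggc
Creld2: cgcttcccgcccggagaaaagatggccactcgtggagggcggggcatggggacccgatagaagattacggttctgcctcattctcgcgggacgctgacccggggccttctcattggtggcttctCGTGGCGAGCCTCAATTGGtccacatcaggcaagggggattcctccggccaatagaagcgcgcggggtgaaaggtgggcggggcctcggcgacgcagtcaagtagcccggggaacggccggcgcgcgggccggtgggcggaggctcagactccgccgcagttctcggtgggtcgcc
The octamer ATTTGCAT, known to be bound by Pou2f2 and its partner Pou2af1, was found in 570 of the 32851 windows (1.74%) and in those of Blnk, 1 of 15 genes of B-cell receptor signalling, and Vpreb3, 1 of 9 genes of follicular, marginal zone and B-1 cells. It was in none of the 12 windows of B-lineage transcription factors. These matches describe letters in a window and not bound sites.

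The YFP- libraries held 18330975 UMIs in 1495 cells (experiment 1, median 8338 per cell) and 10683494 UMIs in 1689 cells (experiment 2, median 4237). The members were deep, with a median of 10768 UMIs (1378 to 39396) in experiment 1 and 6250 (1010 to 31877) in experiment 2. They made up 5.02% of YFP- cells in experiment 1 (exact 95% binomial interval 3.97 to 6.25) and 6.93% in experiment 2 (5.76 to 8.24), a mean of 5.97% ± 1.35 (SD, n = 2). Intervals here cover counting error only. A nearest-neighbour doublet caller marked 117 cells of the YFP- libraries and 1 of the members, and 6 barcodes were shared by the 2 YFP- libraries, 1 of them a member's.

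The B genes of the rule were not evenly spread among members. Mzb1, a chaperone of antibody-secreting and marginal zone cells, had a UMI in 75 of 75 members of experiment 1 and 111 of 117 of experiment 2. Cd79a was detected in 66 and 109 members and Cd79b in 66 and 88. Ms4a1, which encodes the surface protein CD20, was detected in 33 and 72. All 4 genes were detected in 30 and 59 members, and 15 and 30 members stood just inside the rule with 2 genes. These members had a median of 3881 and 1910.5 Igkc UMIs. Just outside it, 10 and 23 hormone-low cells had 1 B gene, and their median of 4.5 and 2 Igkc UMIs was close to the 3 of Gcg-only cells in either library. A further 12 cells had 2 or more B genes but a hormone above its limit, and 3 had 4 or more myeloid genes.

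The markers Igkc and Jchain, which the rule did not use, were far above the other classes in the members. Igkc, the κ constant gene, stood at 314986 CPM (summed UMIs of a gene scaled to a library total of 1e6, without correction for length) in the members of experiment 1 and 99031 CPM in those of experiment 2, against 258 to 499 CPM in the other 6 classes of experiment 1 and 267 to 5521 CPM in those of experiment 2, the highest of these being Sst-only cells. Jchain stood at 35254 and 18127 CPM in members, against 24.4 and 223 CPM in Gcg-only cells. With every cell thinned to 1000 UMIs, Jchain was detected in 81.3% and 64.1% of members and in 3.36% and 3.66% of Gcg-only cells, which should lack it. Igkc was detected in 97.3% and 96.6% of thinned members, but also in 30.0% and 33.8% of thinned Gcg-only cells, so that a few Igkc UMIs in a cell are background here (unthinned, 90.8% and 89.3% of Gcg-only cells had one, at median depths of 7866 and 6423 UMIs).

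Markers of other lineages were set beside other classes of the same libraries where a comparison is given. No class of T cells, plasmacytoid dendritic cells or B-cell progenitors was formed. Macrophage markers summed to 66.8 and 168 CPM in members against 10304 and 13187 CPM in myeloid cells, with Apoe the most abundant (31.2 and 113 CPM) and Ms4a7 at 0 in both experiments. T-cell markers summed to 93.7 and 119 CPM against 5.57 and 6.00 CPM in Gcg-only cells, with Cd2 (39.9 CPM) and Lck (40.6 CPM) the most abundant, and Cd3e stood at 5.39 and 7.69 CPM. At least 3 T-cell markers were detected in 3 of 75 and 4 of 117 members. The part of these cells in the results was not tested. The 10 plasmacytoid dendritic cell markers summed to 1274 and 738 CPM in members, against 324 and 276 CPM in myeloid and 93.3 and 86.1 CPM in Gcg-only cells. Most of this sum was Ly6d (890 and 451 CPM), a surface protein also known from B cells, followed by Tcf4 and Bst2, while Siglech and Cd300c had no UMI in members of either experiment. Of the 8 B-cell progenitor genes, Rag1, Rag2, Dntt, Vpreb1, Vpreb2 and Igll1 had no UMI in members, whereas Cd93, which endothelial cells also express, stood at 6.46 and 20.9 CPM and Il7r had 2 UMIs. Ins2, the insulin gene, stood at 5970 and 2628 CPM in members, below its 9081 and 3294 CPM in myeloid cells. The neutrophil gene S100a8 stood at 1.08 CPM in members of experiment 1 and 135 CPM in those of experiment 2, where the other non-myeloid classes held 124 to 212 CPM.

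The members differed widely from each other in the share of their UMIs that came from immunoglobulin constant genes and Jchain. In experiment 1 this share ran from 0.462% to 82.9% with a median of 58.6%, and in experiment 2 from 0.306% to 70.7% with a median of 1.26%. The medians of the other classes lay between 0.036% and 0.0913%. Members above 10% are called Ig-rich below and the rest Ig-poor, a division made after the values were seen, so that the levels that follow are a description with no test. It is a range and not a cell type, and 9 members of experiment 1 and 2 of experiment 2 lay between 5% and 20%.

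**Figure D1:**
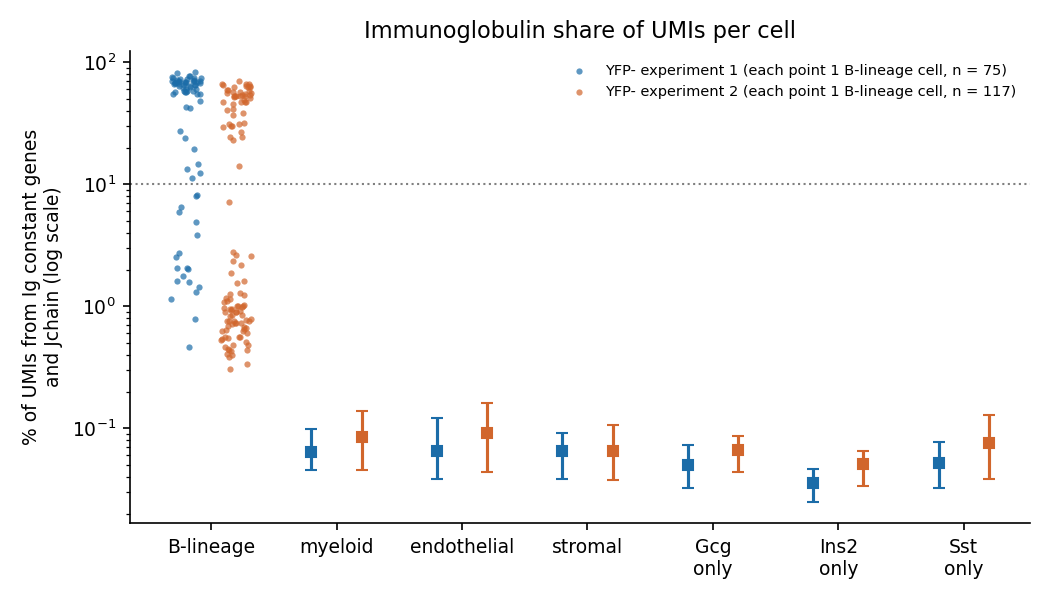
Share of each cell's UMIs from immunoglobulin constant genes and Jchain, in percent on a log axis, for B-lineage cells (1 point per cell, n = 75 and 117). Beside them, the other classes of the YFP- libraries are drawn as median and quartiles. Single cells of these classes, not drawn, reached 18.7% (Gcg-only) and 35.1% (Sst-only) in experiment 2. The members spread from below 1% to above 70%, while the medians of the other classes stay under 0.1%; the dotted line is at 10%.

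Ig-rich cells numbered 56 of 75 members in experiment 1 (74.7%, exact interval 63.3 to 84.01) and 48 of 117 in experiment 2 (41.0%, 32.0 to 50.5). As a share of all YFP- cells they were 3.75% (2.84 to 4.84) and 2.84% (2.10 to 3.75), whose intervals overlap. Ig-poor cells were 19 members or 1.27% of YFP- cells (0.767 to 1.98) in experiment 1 and 69 members or 4.09% (3.19 to 5.14) in experiment 2, whose intervals do not overlap. With 1 library per experiment, a difference between the mice and one between the libraries cannot be told apart. Outside immunoglobulin transcripts, Ig-rich cells were shallow. They had a median of 3965 and 2514.5 other UMIs, against 8708 and 8029 in Ig-poor cells, and the levels below are therefore CPM of non-immunoglobulin UMIs, in the order Ig-rich of experiment 1 and 2, then Ig-poor of experiment 1 and 2. In experiment 1, 6 of the 19 Ig-poor cells had more than 3% immunoglobulin and held 51.1% of the non-immunoglobulin UMIs of that group, so the 13 cells at most at 3%, called low-Ig cells below, are given a value of their own where it differs from that of all 19 by more than 1.5 times. In experiment 2, 1 of 69 cells was above 3%, and without it Prdm1 stood at 16.5, Ccr10 at 1.65 and Itgb7 at 8.24 CPM in Ig-poor cells and Tnfrsf17 had no UMI.

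Genes of plasma cells were higher in the Ig-rich cells of both experiments. Their list of 16 genes summed to 15059 and 14683 CPM in Ig-rich cells and to 2272 and 1178 CPM in Ig-poor cells (1155 CPM in the 13 low-Ig cells of experiment 1). Xbp1, the transcription factor of the secretory programme, stood at 1334 and 1527 CPM against 75.3 and 58.2. Prdm1, which encodes the plasma cell regulator Blimp-1, stood at 153 and 154 CPM against 20.9 and 25.9. For both genes the 2 Ig-rich values lay above the 2 Ig-poor values. Sdc1, the surface marker CD138 of plasma cells, stood at 268 and 234 CPM in Ig-rich cells and had no UMI in Ig-poor cells of either experiment. Derl3 stood at 788 and 944 CPM against 75.3 and 32.4, and Creld2 at 1780 and 1661 CPM against 109 and 63.1. Tnfrsf17, the survival receptor BCMA, stood at 442 and 409 CPM against 155 and 3.24. In the 13 low-Ig cells of experiment 1, Tnfrsf17 had no UMI, Xbp1 stood at 25.7, Prdm1 at 8.55, Derl3 at 17.1 and Creld2 at 34.2 CPM, each resting on at most 4 UMIs. After thinning to 1000 UMIs, 52 of 56 and 47 of 48 Ig-rich cells had at least 2 plasma cell genes, against 7 of 19 and 17 of 69 Ig-poor cells. Islet transcripts were also higher in Ig-rich cells on this scale. The 10 endocrine markers summed to 6022 and 4334 CPM against 2397 and 1894. The 4 hormone genes of the rule summed to 17709 and 13960 CPM against 7389 and 6032. The part of free RNA in these levels was not tested.

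Lists of B-cell genes differed in their order. The 18 genes of antigen receptor signalling summed to 849 and 824 CPM in Ig-rich and 2079 and 1605 CPM in Ig-poor cells (3550 CPM in the 13 low-Ig cells of experiment 1), and the 13 B-lineage transcription factors to 1627 and 1755 against 2163 and 2959 CPM. The 11 follicular, marginal zone and B-1 genes summed to 2711 and 2184 CPM in Ig-rich and 2410 and 1255 CPM in Ig-poor cells, values that overlap, with Ly6d the most abundant in Ig-rich cells at 2187 and 1266 CPM against 891 and 359 (1351 CPM in the low-Ig cells). Among the transcription factors, Pax5, the factor that holds B-cell identity, had no UMI in Ig-rich cells and stood at 87.9 and 137 CPM in Ig-poor cells. Spib, Bcl11a and Cd22, an inhibitory receptor, also had no UMI in Ig-rich cells, where 3 UMIs are worth 10.7 and 20.1 CPM. In Ig-poor cells Spib stood at 46.02 and 118 CPM, Bcl11a at 66.9 and 108 CPM and Cd22 at 46.02 and 69.6 CPM. In the 13 low-Ig cells of experiment 1 these genes were higher, with Pax5 at 179.6, Spib at 94.1, Bcl11a at 119.7 and Cd22 at 94.1 CPM. Ebf1, an early B-cell factor, stood at 60.7 and 114 CPM against 481 and 522 (907 CPM in the low-Ig cells). Ms4a1 was detected in 16 of 56 and 5 of 48 Ig-rich cells and in 17 of 19 and 67 of 69 Ig-poor cells. Pou2af1, the partner of Pou2f2, was higher in Ig-rich cells, at 582 and 630 CPM against 197 and 306. Vpreb3, an assembly factor of immunoglobulin, stood at 146 and 167 CPM against 130 and 272, with 51.3 CPM (6 UMIs) in the low-Ig cells. The 8 B-cell progenitor genes, of which only Cd93 and Il7r had UMIs in members, summed to 28.5 and 121 CPM in Ig-rich cells. In Ig-poor cells they summed to 0 and 1.62 CPM. The 6 endothelial markers summed to 28.5 and 40.2 CPM in Ig-rich and 46.0 and 19.4 CPM in Ig-poor cells. The source of these UMIs was not tested.

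Antigen-presentation genes differed among themselves in how they followed the immunoglobulin share. The 10 MHC class II genes summed to 10713 and 5459 CPM in Ig-rich and 13318 and 10343 CPM in Ig-poor cells, values that overlap. H2-Aa, an MHC class II chain, stood at 346 and 181 CPM in Ig-rich cells against 1891 and 1648 CPM in Ig-poor cells, and H2-DMb2, part of the peptide-loading complex, at 10.7 and 0 CPM against 255 and 293 (428 CPM in the 13 low-Ig cells of experiment 1). Cd74, the invariant chain, stood at 9351 and 4743 CPM against 7561 and 5430 (11367 CPM in the low-Ig cells), values that overlap. H2-Aa stood at 9400 and 4186 CPM of all UMIs in the myeloid cells of the same libraries, and the part of free RNA in these levels was not tested.

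The 15 homing and survival receptor genes summed to 3289 and 2231 CPM in Ig-rich and 2967 and 2064 CPM in Ig-poor cells. Most of this was Cd52, a surface glycoprotein of lymphocytes, at 2733 and 1668 CPM against 1941 and 1579, and at 3370 CPM in the 13 low-Ig cells of experiment 1. Itga4, an integrin chain, stood at 153 and 281 CPM against 234 and 56.6, values that overlap, but at 34.2 CPM (4 UMIs) in the low-Ig cells, below both Ig-rich values. The homing receptors proper rested on few UMIs, and their levels are again in CPM of the UMIs outside the immunoglobulin genes, with experiment 1 first. Ccr9, a chemokine receptor that guides lymphocytes to the gut, stood at 67.8 and 53.6 CPM in Ig-rich cells (19 and 8 UMIs, in 4 and 6 cells) and at 96.2 and 0 CPM in Ig-poor cells. Ccr10, a chemokine receptor of plasma cells that home to mucosal tissues, stood at 96.3 and 13.4 CPM in Ig-rich and at 75.3 and 3.24 CPM in Ig-poor cells. Itgb7, an integrin chain of gut homing, stood at 67.8 and 26.8 CPM in Ig-rich and at 126 and 14.6 CPM in Ig-poor cells. For these 3 genes the values of the 2 kinds overlapped, and experiment 1 lay above experiment 2 in either kind. In the 13 low-Ig cells of experiment 1, however, Ccr9 stood at 17.1 CPM (2 UMIs), Ccr10 had no UMI and Itgb7 stood at 76.98 CPM. Cxcr5, the receptor that guides B cells to follicles, had no UMI in Ig-rich cells, which allows up to 10.7 and 20.1 CPM at 3 counts per library, and stood at 12.6 and 17.8 CPM in Ig-poor cells (25.7 CPM, or 3 UMIs, in the low-Ig cells), so that a difference was not detectable at this depth.

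As sums, germinal centre and cell-cycle genes were higher in Ig-poor cells of both experiments, the former mostly in experiment 2. The 7 germinal centre genes summed to 57.1 and 26.8 CPM in Ig-rich and to 117 and 603 CPM in Ig-poor cells. In the 13 low-Ig cells of experiment 1 they summed to 179.6 CPM, which rests on 21 UMIs. Single genes did not all follow the sums, and the values of Gcsam overlapped between the 2 kinds. Rgs13, a regulator of G-protein signalling typical of germinal centre B cells, had no UMI in Ig-rich cells and stood at 33.5 and 205 CPM in Ig-poor cells, where 3 of 19 and 39 of 69 cells had a UMI, and at 59.9 CPM in the 13 low-Ig cells of experiment 1. Mybl1 had UMIs only in Ig-poor cells of experiment 2, at 63.1 CPM. Gcsam stood at 10.7 and 20.1 CPM in Ig-rich and 8.37 and 128 CPM in Ig-poor cells, where the 8.37 is 2 UMIs, both from low-Ig cells (17.1 CPM there). At least 3 of the 7 germinal centre genes were detected in 1 of 19 and 35 of 69 Ig-poor cells and in no Ig-rich cell, but in 0 of 19 and 4 of 69 Ig-poor cells once all were thinned to 1000 UMIs. The 10 proliferation genes summed to 1844 and 563 CPM in Ig-rich cells and to 3933 and 4647 CPM in Ig-poor cells (2677 CPM in the low-Ig cells). Pclaf, a replication factor, was the most abundant of them over all members, with 464 and 127 CPM in Ig-rich cells against 1105 and 1419 in Ig-poor cells (736 CPM in the low-Ig cells). In 5 of 75 and 43 of 117 members, at least 2 germinal centre genes and 3 proliferation genes were detected together, counts that fell to 0 and 4 when cells were thinned to 1000 UMIs. At least 3 proliferation genes alone were then detected in 12 of 75 and 45 of 117 members.

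Genes outside the lists, chosen after their values were seen, also followed the immunoglobulin share. Slpi, a secreted protease inhibitor, stood at 2854 and 13256 CPM in Ig-rich cells and 12.6 and 87.4 CPM in Ig-poor cells (25.7 CPM, or 3 UMIs, in the 13 low-Ig cells of experiment 1). Ly6c2, a surface protein, stood at 3671 and 4381 CPM against 4.18 and 14.6, with no UMI in the low-Ig cells. The nuclear RNA Malat1 stood at 68655 and 101562 CPM against 16653 and 11498.

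**Figure D2:**
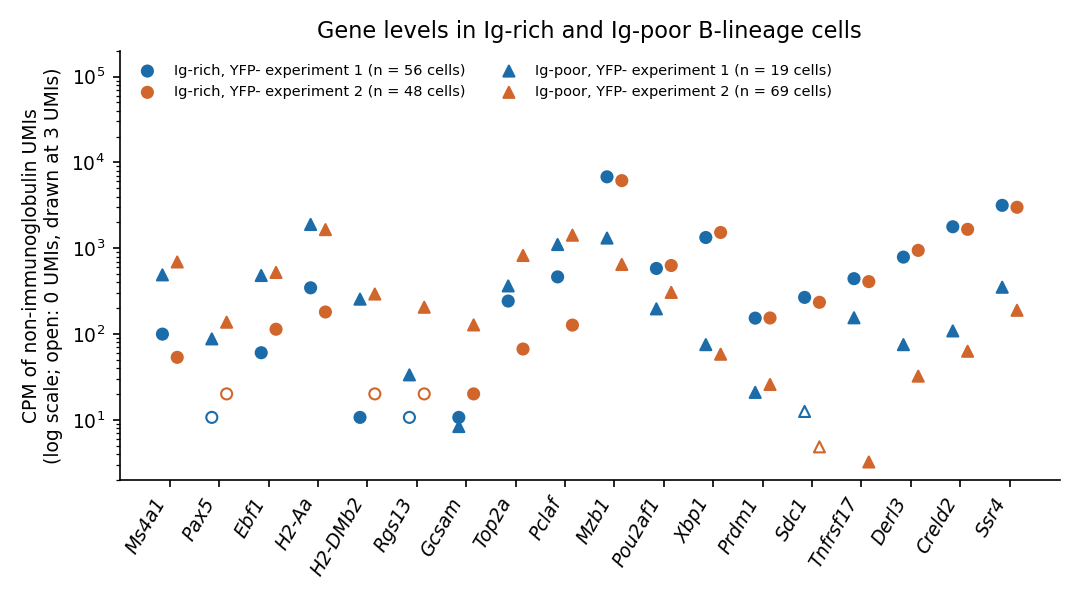
Levels of selected genes in Ig-rich and Ig-poor B-lineage cells of each experiment, in CPM of non-immunoglobulin UMIs on a log axis, with open symbols for genes at 0 UMIs. Plasma cell genes such as Xbp1 and Sdc1 lie higher in the Ig-rich cells of both experiments, and Pax5 and Rgs13 have no UMI there.

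Light chains were counted in each member with at least 3 light-chain UMIs, and assigned where at least 80% of them came from κ or from the summed λ genes Iglc1, Iglc2 and Iglc3, which are close copies. Of 75 members of experiment 1, 62 were κ (82.7%, exact interval 72.2 to 90.4), 6 λ and 7 neither. Of 117 members of experiment 2, 82 were κ (70.1%), 6 λ and 29 neither. Every Ig-rich cell was assigned, as κ in 53 of 56 and 44 of 48 cells and as λ in the remaining 3 and 4. The members without an assignment were therefore all Ig-poor. Of Ig-poor cells, 9 of 19 and 38 of 69 were κ and 3 and 2 λ. Of the 13 low-Ig cells of experiment 1, 3 were κ, 3 λ and 7 neither. The same limits called 152 of 179 (84.9%) and 177 of 194 (91.2%) Gcg-only cells κ and none λ, although Gcg-only cells make no antibody, so that a κ assignment does not tell a member with few Igkc UMIs from background. With 95% in place of 80%, 56 of 75 (74.7%) and 42 of 117 (35.9%) members were κ.

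**Figure D3:**
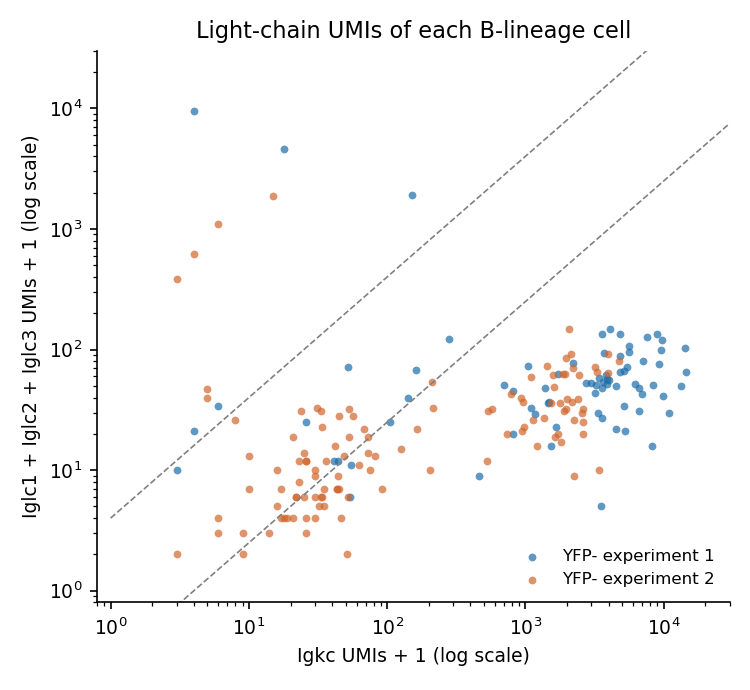
UMIs of Igkc against the summed UMIs of Iglc1, Iglc2 and Iglc3 in each B-lineage cell (both plus 1, log axes; colour gives the experiment, n = 75 and 117). Dashed lines mark 80% of light-chain UMIs from κ or λ; 144 cells lie on the κ side and 12 on the λ side.

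Heavy-chain classes were mixed. Of the Ig-rich cells, 21 of 56 in experiment 1 (37.5%, 24.9 to 51.5) and 13 of 48 in experiment 2 (27.1%, 15.3 to 41.8) had mainly IgM or IgD transcripts. IgA led in 18 (32.1%) and 16 (33.3%), and IgG, summed over its subclasses because these are close copies, in 16 (28.6%) and 16 (33.3%). In experiment 2, 1 cell had mainly IgE, and 1 and 2 cells had no leading class. The 3 large classes thus took similar shares, and their intervals overlap within and between experiments. Among Ig-poor cells with at least 3 heavy-chain UMIs, IgM or IgD led in 10 of 18 and 16 of 63, IgA in 7 and 2, and IgG in 1 and 20, while 25 of the 63 had no leading class. Of the 12 low-Ig cells of experiment 1 with 3 heavy-chain UMIs, IgM or IgD led in 10, IgA in 1 and IgG in 1, so that 6 of the 7 IgA calls came from cells above 3%. The same limits gave IgA in 2 of 34 and 16 of 93 Gcg-only cells, IgG in 1 and 3 and IgM or IgD in 1 and 0, so that the IgA calls of Ig-poor cells in experiment 2 are at or below this background. By level, Igha stood at 24663 and 15888 CPM and Ighm at 20954 and 5135 CPM in all members, and Ighd at 4.31 and 8.79 CPM. Variable segments of the κ locus were diverse. A leading Igkv segment could be named in 41 and 36 members, which used 21 and 24 different segments, and the most frequent, Igkv1-117, was found in 6 and 4 members.

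B-lineage cells were set beside the myeloid cells of the same libraries (76 in experiment 1 and 219 in experiment 2), the other immune class, by summing UMIs per class and library and fitting edgeR's quasi-likelihood model to all 14 sums of 7 classes. Both classes were formed with B and myeloid genes of the same cells, so this is the contrast the rule used and genes tied to those genes were bound to differ. The fold changes are therefore a description, without p-values. Of 10444 genes, 544 (5.21%) met the limits of an adjusted p of 0.05 and a log2 fold change of 1 for being higher in B-lineage cells and 1089 (10.4%) for being higher in myeloid cells, with a median log2 fold change of -0.01 over all genes. Nothing is read from how the counts of a list compare with these shares.

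Antibody genes came first. All 11 immunoglobulin constant genes that were fitted met the limit for higher in B-lineage cells, with a median log2 fold change of 9.29. Igkc stood at 314986 and 99031 CPM in B-lineage against 398 and 385 CPM in myeloid cells, a log2 fold change of 9.85 ± 1.10 (SE). Jchain stood at 35254 and 18127 CPM against 24.5 and 47.6 CPM (10.88 ± 1.25). Of the antigen receptor and signalling list, 8 of 16 genes were higher in B-lineage cells, 1 was higher in myeloid cells and 7 met neither limit. Fcgr2b, an inhibitory receptor for antibody shared by B cells and macrophages, was the one higher in myeloid cells, at 14.0 and 8.79 CPM in B-lineage against 112 and 137 CPM in myeloid cells.

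Among B-lineage transcription factors, 8 of 12 were higher in B-lineage cells and 4 met neither limit. Pou2af1 stood at 226 and 311 CPM against 0 and 2.64 CPM (log2 fold change 7.70 ± 0.71). Pax5 stood at 22.6 and 93.4 CPM against no UMI, at least 28.9-fold higher against 3 UMIs over the group. It missed the limit without the sums of experiment 2 and with DESeq2. Of 16 plasma cell genes, 15 were higher in B-lineage cells. Derl3 stood at 257 and 177 CPM against 5.45 and 1.76 CPM (6.69 ± 0.51), and Xbp1 at 422 and 290 CPM against 95.3 and 91.6 CPM (2.52 ± 0.33). The exception, Slamf7, stood at 62.5 and 48.3 CPM against 51.7 and 12.3 CPM.

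MHC class II genes lay the other way, with 5 of 10 higher in myeloid cells and none higher in B-lineage cells. H2-DMb1 stood at 10.8 and 34.1 CPM in B-lineage against 539 and 263 CPM in myeloid cells (log2 fold change -4.00 ± 0.74). H2-Aa stood at 591 and 1149 CPM against 9400 and 4186 CPM (-2.91 ± 0.94), and missed the limit without experiment 1, with DESeq2 and without the experiment term. Of homing and survival receptors, 1 of 11 was higher in B-lineage cells, Tnfrsf13c, the receptor of the B-cell survival factor BAFF, with 35.5 and 115 CPM against 0 and 0.881 CPM. Of the 9 follicular, marginal zone and B-1 genes, 4 were higher in B-lineage and 2 in myeloid cells. Of 10 proliferation genes 3 were higher in B-lineage cells, Pclaf among them at 424 and 984 CPM against 185 and 276 CPM, and of 4 germinal centre genes 1, Fas, at 24.8 and 40.6 CPM against 8.17 and 13.2 CPM. Mybl1 and Rgs13 were too low over all sums to be fitted.

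The genes with the largest fold changes by the naming rule were Jchain, Igkc, Iglc2, Ighg2c, Iglc1 and Ighg2b on the B-lineage side, with 4 further genes not named, 3 of them variable segments. On the myeloid side they were Ms4a3, Clec4a2, Mgl2, Ctsg, Ccl24, Clec10a, Batf3, Clec4a1, Mpo and S100a8. Ms4a3, a gene of granulocyte and monocyte progenitors, had 829 UMIs in myeloid cells and none in the members, and all 10 macrophage markers and all 3 neutrophil markers fitted were higher in myeloid cells. No endothelial, stromal, endocrine, acinar or duct marker met either limit.

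**Figure D4:**
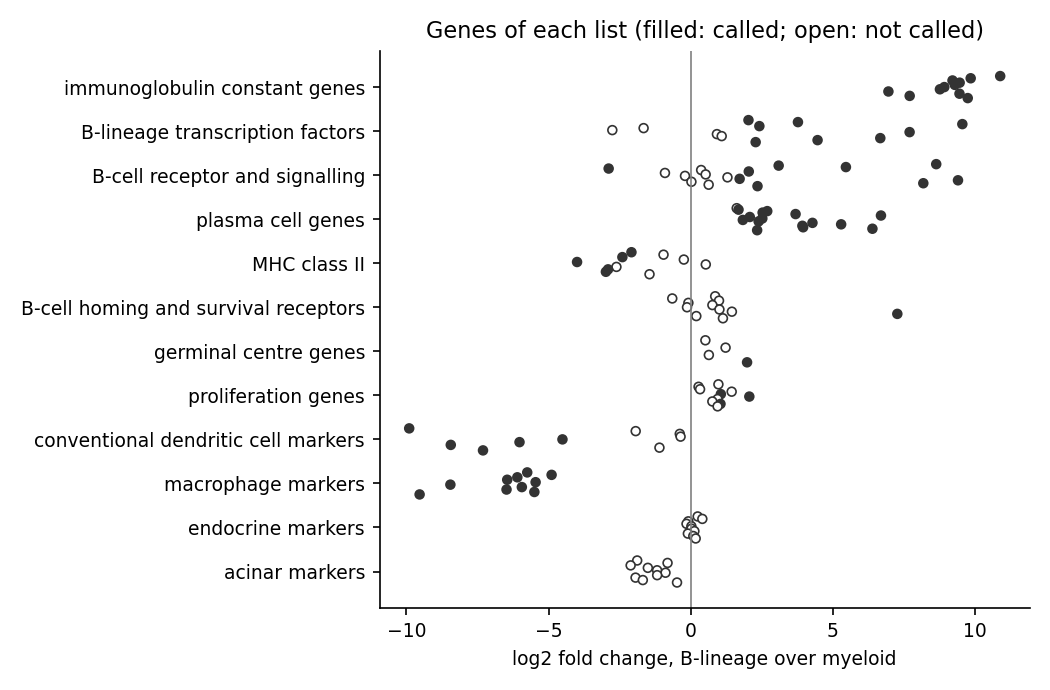
Log2 fold change of B-lineage over myeloid cells for each fitted gene of selected lists (1 point per gene, genes of the rule left out). Filled points met the limits and open points did not. The list medians, not drawn, are 9.29 for immunoglobulin genes, 2.61 for plasma cell genes, -2.24 for MHC class II genes and -6.02 for macrophage markers.

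The YFP+ libraries show whether such cells were also found among the sorted γ-cells. No YFP+ cell was hormone-low, so none could be a member. Setting the hormones aside, at least 2 of the 4 B genes were detected in 35 of 1495 and 61 of 1689 YFP- cells thinned to 1000 UMIs (2.34% and 3.61%), and in 0 of 1300 (which allows up to 0.283%) and 2 of 1498 (0.134%) thinned YFP+ cells. The difference was 2.91 percentage points ± 0.804 (SD, n = 2 pairs), and higher in both YFP- libraries. It is a description, since these are the genes of the rule. Without thinning the difference was 6.27 points.

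Over all cells of a library, Igkc stood at 16475 and 9489 CPM in YFP- and 13.6 and 219 CPM in YFP+ libraries (log2 fold change 7.68 ± 1.31, adjusted p = 0.00285 by edgeR with experiment as a term). Without the term the adjusted p was 0.0642. Ighm stood at 1086 and 484 CPM against 2.14 and 2.78 CPM (8.11 ± 0.52, adjusted p = 1.28e-05 by edgeR). Of the rule genes, Mzb1 stood at 124 and 129 CPM against 0.342 and 1.39 CPM (7.08 ± 0.41) and Cd79a at 39.8 and 63.2 CPM against 2.65 and 3.73 CPM (3.88 ± 0.20), given without a test because the rule used them. Cd79a was also the B gene found in endocrine cells, with 26.6 and 61.8 CPM in Ins2-only cells, in which Cd79b stood at 0.287 and 0.763 CPM.

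Of 13620 genes fitted, 1811 (13.3%) were higher in YFP- and 396 (2.91%) in YFP+ libraries. All 11 immunoglobulin constant genes were higher in YFP- libraries, as were 14 of 16 receptor and signalling genes, 10 of 13 B-lineage transcription factors and 10 of 16 plasma cell genes. Xbp1 was not among them, at 86.0 and 119 CPM against 79.9 and 82.8 CPM (0.21 ± 0.17, adjusted p = 0.419 by edgeR), and Gcg-only cells of the YFP- libraries held 70.0 and 98.4 CPM of it. All 10 MHC class II genes and all 10 proliferation genes were higher in YFP- libraries, but so were all 10 macrophage and all 10 acinar markers, and the part of each cell type in the shared genes was not tested. By the naming rule, S100a9, S100a8, Camp, Elane and Ighg3 were highest over YFP+ libraries, and rtTA, YFP, Pyy, Folr1 and Tspan8 over YFP- libraries. Experiment 2 carried most of S100a9 (22.7 and 3331 CPM in the YFP- libraries of experiments 1 and 2) and S100a8 (55.5 and 5074 CPM). The same held for Camp (2.51 and 881 CPM) and Elane (24.1 and 480 CPM), but not for Ighg3 (509 and 237 CPM). Ighg3, the constant gene of IgG3, had 11865 UMIs in YFP- libraries and 1 in YFP+ libraries.

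B-lineage transcripts were then followed in the bulk libraries of sorted γ- and δ-cells, in which fewer cells of a type and less RNA per cell cannot be told apart. Totals were 14633838 to 31784878 counts in the 5 γ libraries and 7641916 to 11773598 in the 3 δ libraries. The γ libraries were sequenced paired-end and the δ libraries single-end on another instrument, so that platform and cell type cannot be told apart. Igkc stood at 39.1, 94.4, 173, 8.26 and 338 CPM in γ replicates 1 to 5, and at 471, 115 and 77.3 CPM in δ replicates 1 to 3. The ranges overlapped, and the log2 fold change of γ over δ was -0.46 ± 0.92 (adjusted p = 0.699 by edgeR). The means were 130 ± 132 CPM (SD, n = 5) in γ- and 221 ± 217 CPM (SD, n = 3) in δ-cells, so that the spread within either group was larger than the difference.

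Other antibody genes were as uneven. Igha stood at 29.2, 1.53, 122, 4.40 and 361 CPM in γ and 319, 209 and 0 CPM in δ libraries. Ighg2b stood at 3.30, 83.1, 0.688, 0.0454 and 0.547 CPM in γ and 738, 0.934 and 0 CPM in δ libraries. Iglc2 stood at 0.283, 0.477, 1.28, 0.454 and 2.32 CPM in γ and 293, 1.27 and 0.376 CPM in δ libraries. For each of these genes a single library carried most of the counts of a group, and it was often δ replicate 1. Iglc2 was called higher in δ-cells (log2 fold change -6.47 ± 1.60, adjusted p = 0.00615 by edgeR), but without δ replicate 1 its fold change was 0.43 (adjusted p = 0.744).

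The rule genes followed the same library. Mzb1 stood at 0.692, 1.96, 2.52, 0.408 and 1.44 CPM in γ and 55.0, 4.33 and 0.847 CPM in δ libraries (-3.52 ± 1.02, adjusted p = 0.0144 by edgeR, and 0.541 without δ replicate 1). Ms4a1 stood at 0.0315, 0.191, 2.29, 0.272 and 1.37 CPM in γ and 21.6, 4.93 and 0.753 CPM in δ libraries (-3.17 ± 1.15, adjusted p = 0.0396 by edgeR, and 0.319 without δ replicate 1). Cd79a, at 1.42 to 4.92 CPM in γ and 2.35 to 16.5 CPM in δ libraries, did not pass (adjusted p = 0.0981 by edgeR). Of 17926 genes fitted, 3715 (20.7%) were higher in γ- and 2553 (14.2%) in δ-cells, a split that became 3055 and 3746 with upper-quartile scaling. Of 12 immunoglobulin constant genes 3 were higher in δ-cells and none in γ-cells, the λ genes Iglc1, Iglc2 and Iglc3, and of the 4 rule B genes 2 were. Of 15 plasma cell genes 3 were higher in γ- and 1 in δ-cells, Xbp1 among the former at 414 to 546 CPM against 58.1 to 238 CPM. None of 9 MHC class II genes passed in either direction, whereas all 10 acinar markers were higher in δ-cells. Markers of other cell types were also high in δ replicate 1. The 6 endothelial markers summed to 171 CPM there against 43.7 and 44.1 CPM in the other δ and 27.7 to 53.4 CPM in the γ libraries, and the 10 macrophage markers to 338 CPM against 81.8 and 54.9 CPM in the other δ and 148 to 448 CPM in the γ libraries. Pecam1, an endothelial adhesion protein, stood at 59.5, 6.03 and 3.11 CPM in δ replicates 1 to 3. The part of these cell types in the results was not tested.

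**Figure D5:**
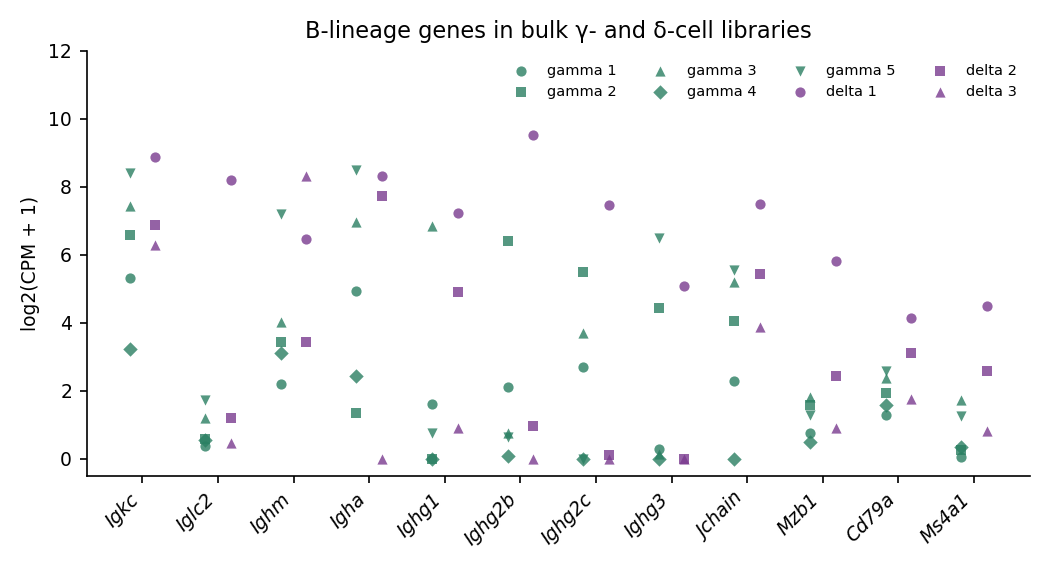
Log2(CPM + 1) of B-lineage genes in each bulk library, 5 γ and 3 δ (1 symbol per replicate). Igkc, Igha and Ighm spread widely within both groups, and δ replicate 1 stands highest for Mzb1, Ms4a1 and Iglc2.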

How the data were processed

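Per the labels and the study's methods, islet cells were sorted for YFP, captured with the 10x Genomics 3' v2 kit, and processed by the authors with Cell Ranger against mm10 to which YFP and rtTA had been added. The deposited matrices hold raw UMI counts per gene and cell (31055 genes), and the deposited bulk table holds raw read counts per gene (45808 genes), aligned by the authors with STAR 2.7.2b and counted with HTSeq 0.9.1 on GRCm38.p6. Of the bulk table, 6 columns of other cell types were not used.

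The members and all gene lists were chosen with earlier results of these data known, and the division by immunoglobulin share, the levels of Ig-poor cells at most at 3%, the share of hormone-low cells and the refits without 1 experiment's B-lineage and myeloid sums were chosen after seeing the data. Raw counts were summed per class and library. Doublets marked by a nearest-neighbour caller (2% of each experiment) were kept, and removed in an alternative. edgeR 4.0.16 (R 4.3.3) quasi-likelihood tests with TMM scaling, Benjamini-Hochberg adjustment over all genes and a filter on low counts were used, with experiment as a term in the single-cell fits, in which the 2 fractions, and the classes of a library, come from the same pooled islets. Calls needed an adjusted p of at most 0.05 and at least 1 on the log2 scale. DESeq2 1.42.0 was an alternative. Per-cell shares used cells thinned to 1000 UMIs where stated, and chains needed 3 UMIs. On simulated counts for B-lineage against myeloid cells (8965 genes), 13% of 2-fold and 94% of 4-fold changes were called, with 2.73% unchanged genes among the calls. The simulated classes shared a single mean profile and a common dispersion, and only genes above a minimum expected count were changed. The real classes differ in profile, so these rates need not hold for them.

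Named genes were those of the rule and lists, the 10 largest fold changes in each direction for B-lineage against myeloid cells and the 5 for YFP- against YFP+, among called genes whose groups did not overlap and with at least 100 or 50 CPM in the higher group; predicted genes and variable segments were only counted. A planned comparison of Mzb1 members without Ms4a1 with Ms4a1 members without Mzb1 was not run, because the latter numbered 0 and 5 and 10 per library were required. Islets of several mice were pooled in each single-cell experiment, so that n counts experiments there. The p-values measure the spread between these samples, moderated across genes. The fit of the 4 YFP- and YFP+ libraries leaves few residual degrees of freedom. Its p-values therefore rest largely on spread shared with other genes (median total degrees of freedom 8.84). Promoter sequences are from RefSeq (GRCm38.p6). Some genes of these lists are not reported here.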

Additional observations from a re-analysis of the deposited data

Results flagged for a closer look

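Of 16 sets of γ bulk values examined for a library far from the others, 5 had one, by a limit that marks about 1 in 20 sets of independent, normally distributed values. These CPM values are skewed and share libraries, so that this rate does not apply to them. Replicate 5 stood far from the rest for Ighm (145 CPM) and Ighg3 (88.2 CPM), replicate 3 for Ighg1 (113 CPM), and replicate 2 for Ighg2b (83.1 CPM) and Ighg2c (43.7 CPM). No single library was thus the high one for all 5 antibody genes. In the YFP+ library of experiment 2, outside the comparisons of members, 3 cells had more than 10% of their UMIs from immunoglobulin constant genes and Jchain (11.7% to 74.1%), against 0 cells in that of experiment 1. All 3 were above the Ppy limit, 1 of them had 2 or more B genes, none shared a barcode with another library and none was marked as a doublet.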

How the results depend on the processing

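The mean share of members among YFP- cells (5.97%) became 4.58% with at least 3 of the 4 B genes and 2.95% after thinning to 1000 UMIs. Of hormone-low cells it was 16.3% (18.7% in experiment 1 and 13.9% in experiment 2, the reverse of their order among all YFP- cells). Leaving out 1 experiment gave 5.02% to 6.93% of YFP- cells. The YFP- excess of cells with 2 B genes (2.91 points) became 6.27 points without thinning and 1.14 with at least 3 genes, and 2.34 to 3.48 when an experiment was left out. With at least 95% of UMIs from 1 class, κ fell from 76.4% to 55.3% (74.7% and 35.9% by experiment) and λ from 6.56% to 3.04% of members as library means; without 1 experiment κ was 70.1% to 82.7%, λ 5.13% to 8.0%, IgM or IgD 26.1% to 41.9%, IgA 16.2% to 33.8% and IgG 23.0% to 32.4%. Genes higher in B-lineage cells (544) and in myeloid cells (1089) became 155 and 445 after thinning, 273 and 812 with the sums of these 2 classes alone, 407 and 918 without the replicate block, and 365 to 493 and 555 to 957 with 1 experiment's sums left out, which assumes that the lone sum varies like the other classes. Genes higher in YFP- (1811) and YFP+ libraries (396) became 1193 and 213 with DESeq2 and 690 and 150 with no replicate block. Genes higher in γ- (3715) and δ-cells (2553) became 3055 and 3746 with upper-quartile scaling, which shifted all genes to a median of -0.35 on the log2 scale, and 3803 and 3787 with no filter; leaving out 1 library gave 3430 to 3766 and 2052 to 2588. Bulk replicate numbers did not pair the samples (correlations of deviations -0.0952, 0.0678 and -0.274), and a fit with a replicate block, which also leaves out γ replicates 4 and 5, gave 3208 and 2175. Log2 fold changes that reversed when 1 experiment or library was left out were those of Cox6a2 (-7.32 to 6.37) and Fscn1 (-2.37 to 3.17) in B-lineage against myeloid cells, and of Iglc2 (-7.07 to 0.43) and Cdh5 (-3.50 to 0.079) in bulk, both positive without δ replicate 1. For these changes the cause was not tested, except that thinned and smaller data hold fewer counts. Of the other single-gene values with a test, 1886 in B-lineage against myeloid cells, 905 in YFP- against YFP+ and 2338 in bulk kept their side of the limit and, where they met it, their direction, 72, 88 and 82 no longer met it and 62, 2 and 95 newly met it. Of fold changes without a test, with 1 experiment left out, 150 and 267 moved by at least 1 SE or changed sign without having met the limit, and 192 and 130 did neither, in the first and second of these comparisons. Genes with 3 UMIs or fewer in a class were at the limit of the depth.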

Other observations

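Cells with more than 10% immunoglobulin UMIs that were not members were rare in the YFP- libraries. Experiment 1 had 1 such cell (71.9%), in which fewer than 2 of the B genes were detected and no hormone was above its limit. Experiment 2 had 7 (12.5% to 53.6%), of which 3 had 2 or more B genes and 5 were above a hormone limit; they had a median of 9915 UMIs against 4237 in all cells of that library. They included 3 Gcg-only cells and 1 Sst-only cell, the classes of experiment 2 in which summed Igkc stood at 1275 and 5521 CPM.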
